A study of Mus musculus with 41 samples.

Results

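The tumors described here were 8 epithelial mammary tumors from mice fed the high fat diet (HFD) lifelong, of which 4 were labelled as early occurring and 4 as late occurring. They were chosen by 3 labels, namely the diet, the onset and the morphology "p53 variable", which was read as the epithelial class. The 8 were part of 29 epithelial tumors and of 41 arrays in the series. All 8 arose from mammary duct fragments of chow-fed Trp53-null BALB/c donors, grown in the cleared inguinal fat pads of wild-type female BALB/c mice, with HFD begun soon after the surgery. Early and late tumors thus shared genotype, strain and diet and differed by label in onset, for which the study set the boundary at about a year. The other 21 epithelial tumors came from low fat diet (LFD), HFD-LFD and LFD-HFD mice, the last 2 being regimens switched between puberty and adulthood. Stroma, vessels and immune cells of a tumor could come from the wild-type host, but no label traced their origin. In these bulk tumors, fewer cells of a type and less RNA per cell cannot be told apart. Donor mice were spread over the diet groups, and no label tied a tumor to its donor or age at harvest.

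Interferons are cytokines that bind receptors linked to the kinases Jak1, Jak2 and Tyk2. The signal switches on antiviral proteins, GTPases that attack intracellular microbes and the machinery that displays peptides on MHC class I. Mammary ducts have an inner luminal layer, marked by keratins 8 and 18 and by epithelial adhesion proteins, and an outer basal or myoepithelial layer, marked by keratins 5 and 14 and by smooth muscle contractile proteins. Mammary tumors that lack Trp53, a DNA damage-activated transcription factor, are known to vary between these 2 patterns.

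The element through which the interferon-activated complex acts on DNA contains 2 GAAA repeats, and windows from promoters of interferon-induced genes that are described below are shown to make this recognisable. The motif GAAANNGAAA was searched on both strands of the 250 bases before each gene's start, in RefSeq promoters of GRCm38.p6. Capitals mark the match, which appears as TTTCNNTTTC where it lies on the other strand, and each window holds 30 bases in the direction of transcription.
Ifit1 (chr19:34640775-34640804, + strand): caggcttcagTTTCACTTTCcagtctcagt
Gbp7 (chr3:142530273-142530302, + strand): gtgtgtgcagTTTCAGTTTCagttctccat
Tgtp1 (chr11:48992304-48992333, - strand): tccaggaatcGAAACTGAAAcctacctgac
Irgm1 (chr11:48871431-48871460, - strand): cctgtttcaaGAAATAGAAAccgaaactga
The match began 104 bases before the start of Ifit1, 53 before Gbp7, 77 before Tgtp1 and 30 before Irgm1. It was present in 8 of the 23 antiviral genes with a promoter in the table (34.8%) and in 8 of 9 interferon-induced GTPases (88.9%), against 936 of all 27025 promoters (3.46%) and 445 of the 13460 belonging to tested genes (3.31%). Among luminal genes 1 of 12 held it (8.33%), and among basal genes 1 of 6 (16.7%). For Ifit2, Mx1, Cmpk2 and Gbp6, chosen by the same rule, no window could be shown. The search found no match before their start, or the table held no promoter for them. A match describes the letters only.

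Each array compared a tumor, in the Cy5 channel, with a Universal Mouse Reference RNA of 11 mouse cell lines in the Cy3 channel. Values are log2 ratios of tumor over reference, and a difference is the mean of the early tumors minus the mean of the late tumors. This direction follows the sample labels and opposes the methods text, which gives the reference as Cy5. Ddx3y and Eif2s3y, which lie on the Y chromosome, served to check it, because the tumors and hosts were female. Both were far lower in the Cy5 channel on all 8 HFD arrays, with log2 ratios from -8.65 to -5.07, and the highest value over all 29 epithelial tumors was -2.59.

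Several arrays stood apart. The early tumors 42L4B and 60L were hybridised to slide 5, in a scan session of their own, whereas the early tumors 40R4A and 65R and the late tumors 57R and 66L shared slide 8, and the late tumors 56R and 62L lay on slide 1. The reference RNA, meant to be the same everywhere, deviated on 42L4B and 60L from its mean over the other arrays by 0.519 and 0.607 (median absolute deviation, log2), while the other 27 arrays lay between 0.0848 and 0.362. Spots flagged as outliers, which were left out of the fit, made up 22% of the array of 60L, 3.5% of that of 42L4B and 0.523 to 0.802% of the other 6. In the tumor channel, 65.1% ± 1.06 of spots exceeded background well on the early arrays and 72% ± 3.21 on the late arrays (SD, n = 4 each), without overlap (exact permutation test, two-sided, p = 0.0286, the smallest possible). The spread of log2 ratios over probes (median absolute deviation) was 1.06 to 1.11 on early and 0.879 to 1.02 on late arrays, also without overlap (exact permutation test, two-sided, p = 0.0286). With arrays scaled to the same spread, the median difference of the antiviral genes described below was 0.73 (29 of 32 positive) and that of basal genes -1.06. Beyond this, the part of the array differences in the results was not tested.

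**Figure D1:**
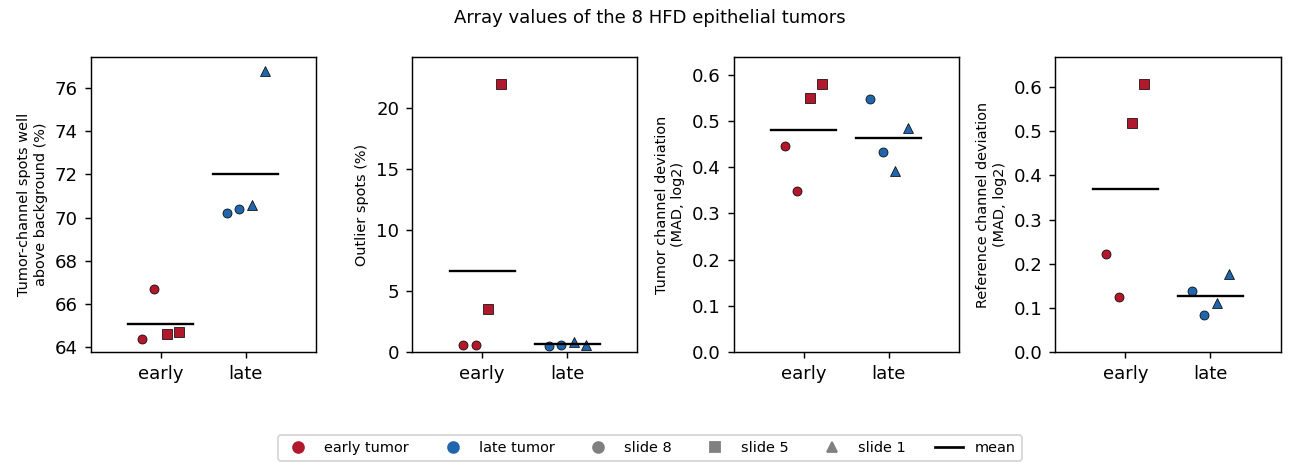
The panels plot, for each of the 4 early and 4 late HFD tumors, the share (%) of tumor-channel spots scored as well above background, the percent of outlier spots, and the deviation of the tumor and reference channels from the other arrays (MAD, log2). Marker shape gives the slide, black lines give group means, and the first axis does not start at 0. The squares of 42L4B and 60L stand highest among the 8 in reference channel deviation, at 0.519 and 0.607, and 60L had 22% outlier spots.

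A second limit concerned labels. In the authors' normalized table, the column named 40R4A matched the scanner file labelled 57R (Pearson correlation across probes 0.968, against 0.821 for its own label), the column 57R matched the file labelled 65R (0.965 against 0.759), and the column 65R matched the file labelled 40R4A (0.966 against 0.837). By those columns tumor 57R would be the early and 65R the late member of the pair. The other 5 HFD tumors matched their own files. The scanner files' labels were used, and the called genes and main gene lists are also given without the 3 tumors, with outlier spots kept, and without 42L4B and 60L.

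The comparison of early with late tumors asked which genes were related to onset under continuous HFD. Of 21378 genes tested, 5 were called higher (0.0234%) and 16 lower (0.0748%) in early tumors at a false discovery rate of 0.10 (limma with Benjamini-Hochberg adjustment). At an unadjusted p under 0.05, 1778 genes were higher (8.32%) and 1614 lower (7.55%). Among 14206 genes with a value in all 8 tumors, every early value lay above every late value for 558 (3.93%) and below for 322 (2.27%).

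Styk1, which encodes a membrane pseudokinase, had the smallest p. Its log2 ratios were 1.05, 3.70, 1.90 and -0.06 in the early tumors 40R4A, 42L4B, 60L and 65R, an order kept for early tumors throughout. They were -1.39, -1.92, -1.42 and -2.69 in the late tumors 56R, 57R, 62L and 66L, likewise the order kept for late tumors. The groups did not overlap, and the fitted difference was 3.50 ± 0.57 (SE, adjusted p = 0.0264). The probe, at chr6:131250152-131250211 of mm9, was not well above background in any late tumor. In the main processing early tumors were therefore at least 5.61-fold higher, a bound that does not carry over to other processing. The difference was 2.35 without 42L4B and 60L, 4.63 without the 3 tumors of disputed label, and 0.81 with another background correction and another normalization (normexp and loess).

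Il18, a cytokine released by inflammasome activation and a known inducer of interferon gamma, fell in early tumors. Its log2 ratios were -1.02, -2.85, -3.22 and -2.41 in early tumors and 1.03, -0.83, -0.65 and -0.28 in late tumors (probe at chr9:50389761-50389820, mm9). The highest early value, that of 40R4A, lay just below the lowest late value, and the difference was -2.20 ± 0.45 (adjusted p = 0.0888). Without 42L4B and 60L it was -1.54, without the 3 tumors of disputed label -3.07, and in the tumor channel alone -1.95. In the other regimens the mean early minus late difference of Il18 was -0.30, and the contrast of the contrasts had an adjusted p of 0.314.

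Another pair of called genes is known from stratified epithelia. Adgrf4, an adhesion G protein-coupled receptor, had log2 ratios of -2.88, -4.93, -4.09 and -3.19 in early tumors and 0.22, -1.15, -0.33 and 0.12 in late tumors, a difference of -3.49 ± 0.67 (adjusted p = 0.0767). Slurp1, a secreted keratinocyte protein, had values of -3.91, -4.84, -5.14 and -3.20 in early tumors and 2.64, -1.38, -2.90 and -1.33 in late tumors (-3.53 ± 0.72, adjusted p = 0.0888). Neither gene overlapped between the groups, and the late tumor 56R was the highest for both. Their differences without 42L4B and 60L were -2.75 and -2.81, and without the 3 tumors of disputed label -4.51 and -4.46.

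The remaining 4 genes called higher were the lncRNA C130071C03Rik, the zinc finger gene Zfp879, the centrosomal gene Odf2l and an unnamed transcript, TC1646732. C130071C03Rik had log2 ratios of 0.10, 0.79, -0.69 and 1.63 in early tumors and -5.16, -6.32, -2.35 and -5.25 in late tumors (difference 5.23 ± 1.02, adjusted p = 0.0767). The groups did not overlap, but the probe was well above background in only 1 of the 4 late tumors, so that the size of the difference rests on values near background. Under normexp and loess it was 3.04, and with the authors' table labels 1.26. Zfp879 had 1.95, 3.42, 2.29 and 1.37 in early tumors against 0.58, -0.44, -0.12 and -0.10 in late tumors (2.28 ± 0.45, adjusted p = 0.0767), and a second probe of Zfp879 gave 1.35. Odf2l differed by 1.46 ± 0.30 (adjusted p = 0.0888) and TC1646732 by 1.75. Without 42L4B and 60L the differences were 5.64 for C130071C03Rik, 1.68 for Zfp879 and 1.16 for Odf2l, and without the 3 tumors of disputed label 4.31, 2.74 and 1.69. TC1646732 was also called in the other regimens, with a difference of 1.45 (adjusted p = 0.0429). C130071C03Rik and TC1646732, and Styk1 above, fell outside the rule for naming genes and were named after their values were seen.

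The other 13 genes called lower included the cell adhesion gene Sdk1 (-3.22 ± 0.63), the adaptor gene Shc2 (-1.92 ± 0.38), the secreted Wnt-binding gene Sfrp5 (-1.85 ± 0.39), the glutamate transporter gene Slc1a6 (-1.77 ± 0.36), the meiotic cohesin gene Rec8 (-1.61 ± 0.35) and the endothelial heat shock gene Hspa12b (-1.57 ± 0.30). Their adjusted p lay between 0.0767 and 0.0996. Second probes of Shc2 and Hspa12b gave differences of 0.31 and -0.21, so that these calls rested on single probes. A second probe of Sdk1 gave -2.07. Slc1a6 changed direction to 0.27 under normexp and loess. In the order just given, the 6 differences were -2.16, -1.20, -1.31, -0.86, -1.25 and -1.04 without 42L4B and 60L, and -4.50, -2.72, -2.57, -2.86, -2.09 and -2.03 without the 3 tumors of disputed label. The other 7 were Dnajb3, Clec11a, Cpne5, Nsg1, Fhl1, Gm3776 and a probe without a gene name, named after their values were seen. Dnajb3, a gene of the DnaJ cochaperone family, had log2 ratios of -3.54, -4.77, -6.22 and -4.05 in early tumors and -0.64, -1.20, -2.32 and -0.64 in late tumors (-3.44 ± 0.56, adjusted p = 0.0264), without overlap. Its probe was well above background in 1 of the 4 early tumors and in all late tumors. The size of the difference thus rests on values near background. For Dnajb3 the difference was -2.60 without 42L4B and 60L, -4.29 without the 3 tumors of disputed label and -0.34 under normexp and loess. The muscle LIM protein gene Fhl1 was not well above background in any early tumor. In the main processing it was at least 2.62-fold lower in early tumors (limma, adjusted p = 0.0996). That bound does not carry over to other processing, since the fit turned to 0.94 under normexp and loess. Clec11a, a secreted bone growth factor gene, had a difference of -2.32 in the ratio but -0.04 in the tumor channel alone, and its value in 42L4B was dropped as an outlier. The value of 60L was dropped for Cpne5, Nsg1 and Gm3776, and Gm3776 changed sign with the authors' table labels (0.20).

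**Figure D2:**
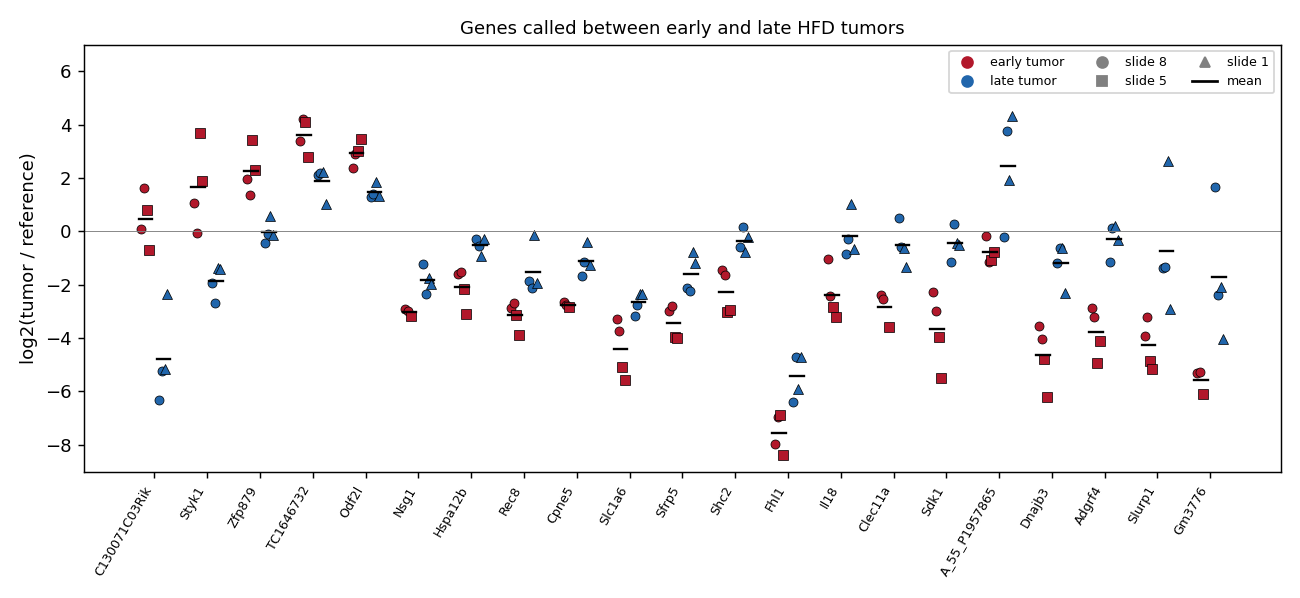
Log2 ratios of tumor over reference are plotted in each early (red) and late (blue) HFD tumor for the 21 genes called at a false discovery rate of 0.10, ordered by difference. Marker shape gives the slide and lines give group means. C130071C03Rik (5.23) and Styk1 (3.50) stand at the upper end, and Gm3776 and Slurp1 (-3.53) at the lower end.

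All 21 called genes kept their direction among the 4 tumors of slide 8, without 42L4B and 60L, without the 3 tumors of disputed label (outlier spots kept) and in the tumor channel alone. For most of them early and late values did not overlap. Their direction in a subset of the same tumors was therefore fixed in advance and adds no evidence. The calls themselves depended on the setting. The 5 higher and 16 lower genes were all called without 40R4A, without 65R, and without the 3 tumors of disputed label with outlier spots kept. With a filter on probes well above background 4 and 12 of them were called, and with outlier spots kept 4 and 14. None of the 21 was called in the authors' normalized table or with its labels of 57R and 65R, although other genes were. The same held with a fixed slide block, on slide 8 alone and with the 8 HFD tumors alone. Without 42L4B and 60L, 0 genes were called (333 higher and 670 lower at an unadjusted p under 0.05, limma). Under normexp and loess 0 genes were called as well (1892 and 946). Without 40R4A, 57R and 65R, 2598 genes were called higher and 1758 lower, and the 2 early tumors left were those of slide 5. In that setting 17 of the 21 genes had a value, and all 17 were called (5 higher and 12 lower). Leaving out single tumors gave between 0 and 1215 genes higher and between 0 and 849 lower, as listed tumor by tumor at the end.

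Interferon-induced antiviral genes, whose products block viral replication, were higher on average in early tumors. All 32 had positive differences, with a median of 0.91 against 0.00 for all genes tested, of which 50.4% were positive. None was called at the false discovery rate, 9 had an unadjusted p under 0.05 (8.32% of all genes were higher at that p), and for 16 of the 26 measured in all tumors every early value lay above every late value (3.93% of all such genes). The mean log2 ratio of the list, with outlier spots kept, was 3.39, 3.01, 3.41 and 2.97 in early tumors and 2.42, 2.53, 2.12 and 1.98 in late tumors. The groups did not overlap, and the mean was 3.18 against 2.26 on slide 8 and 3.21 against 2.27 on the other slides. The median was 0.88 without 42L4B and 60L, 0.94 without the 3 tumors of disputed label and 0.98 in the tumor channel alone, and it dropped to 0.58 both under normexp and loess and with the authors' table labels.

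Ifit1 and Ifit2, which bind foreign RNA and restrain translation, had the largest differences of the list. Ifit1, whose promoter window is printed above, had log2 ratios of 4.87, 5.32, 7.27 and 4.01 in early tumors and 3.0, 2.84, 2.21 and 2.70 in late tumors (2.68 ± 0.74, adjusted p = 0.141). Ifit2 had 2.86, 3.89, 6.18 and 0.89 against 0.79, 0.48, 0.85 and 0.73 (2.74 ± 0.80, adjusted p = 0.142). Early values lay above late values for both, although the early tumor 65R was only just above the late tumors for Ifit2, and neither passed the false discovery rate.

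Mx1, a gene of the dynamin-like GTPase family, depended on the background correction and normalization. Its log2 ratios were 5.17, 6.51, 5.71 and 4.6 in early tumors and 4.09, 3.91, 4.06 and 3.53 in late tumors (1.60 ± 0.49, adjusted p = 0.15). Under normexp and loess the values were 3.63, 2.05, 1.60 and 2.99 against 2.85, 2.54, 2.60 and 2.24, a difference of 0.01. The drop lay in 42L4B and 60L, while both early tumors of slide 8 stayed above all late tumors. For Ifit1 the difference by that method was 1.77 and for Ifit2 it was 1.29. Smaller differences were found for Isg15 (0.41), a ubiquitin-like modifier, and Adar (0.05), an RNA-editing enzyme.

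The interferon-induced GTPases, guanylate-binding proteins and immunity-related GTPases, had positive differences in 14 of 15 genes (median 1.17). None was called, and 6 had an unadjusted p under 0.05 (8.32% of all genes were higher at that p). The median was 1.22 without 42L4B and 60L and 1.1 without the 3 tumors of disputed label. Their mean was 4.07, 2.66, 3.28 and 2.38 in early tumors and 1.99, 2.58, 1.51 and 1.74 in late tumors, so that 65R overlapped with the late tumor 57R. Tgtp1 ranged from 1.64 to 6.46 in early and from 0.46 to 2.02 in late tumors (2.31 ± 0.87, adjusted p = 0.207), with 40R4A highest. Tgtp1 and Tgtp2 are near-identical copies, so that their probes may share signal. Gbp7 had 3.0, 3.33, 5.78 and 2.31 against 1.81, 2.16, 1.92 and 1.47 (1.77 ± 0.61, adjusted p = 0.180) and Irgm1 differed by 1.17 (adjusted p = 0.292). Early and late values did not overlap for Gbp7 and Irgm1.

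Peptide presentation genes of MHC class I and the immunoproteasome had positive differences in 18 of 18 (median 0.61), with none called and 1 at an unadjusted p under 0.05, which is no more than the 8.32% over all genes. That gene was Tap1, the peptide transporter (1.71 ± 0.66, adjusted p = 0.217). MHC class II genes had a median of 0.30, with 7 of 8 positive. These 2 medians were 0.50 and 0.15 without 42L4B and 60L, and without the 3 tumors of disputed label 1.17 and 0.55. Both lists overlapped between early and late tumors. With outlier spots left out, 5 of the 18 class I genes and 4 of the 8 class II genes had a value in all 8 tumors.

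Upstream members of the pathway did not share a direction. Of 16 interferon ligands, receptors and factors tested, 10 had positive differences (median 0.10) and none was called. Irf7, the factor that amplifies type I interferon production, had log2 ratios of 2.37, 4.05, 4.82 and 2.60 in early tumors and 1.87, 2.08, 0.73 and 1.20 in late tumors (1.99 ± 0.68, adjusted p = 0.177). Nlrc5, the transactivator of MHC class I, differed by 1.34 and Tyk2 by 1.18. The high Tyk2 values, 2.69 and 2.89, were those of 42L4B and 60L, while 40R4A and 65R had 0.87 and 1.02 and the late tumor 57R 0.92. The Tyk2 difference was 0.45 in the tumor channel alone and 0.36 under normexp and loess. The receptor genes Ifnar1, Ifnar2 and Ifngr1 had differences of -0.13, -0.20 and -0.32, and the kinase genes Jak1 and Jak2 of -0.41 and -0.43.

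Another 2 lists came from the study itself, which chose them on tumors that include these 8, so that their counts are not independent evidence. Of the 24 genes of its systemic autoimmune list 22 had positive differences (median 1.17), and of the 11 tested genes of its list of down-regulated functions 9 did (median 1.12). The study placed the latter genes under functions down-regulated in early against late tumors, so the direction found here is opposite to that label. It also placed Gbp6, Trim30a and Trim30d under up-regulated functions, so for these genes its labels go both ways. In the other regimens 9 of the 11 were positive as well (median 0.92). The reason was not tested. None of either was called. They share Ifit1, Ifit2, Irf7, Gbp6, Irgm1 and other genes with the lists above. The exceptions in the autoimmune list were the lymphocyte ligand gene Tnfsf8 (-1.16 ± 0.91) and the heparanase gene Hpse (-1.02 ± 0.49). A second probe of Hpse gave 0.14, and the difference of the first was -0.12 under normexp and loess.

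Chemokine ligands were split. Of 22 tested, 6 had positive and 16 negative differences (median -0.76), and none was called. In each direction 2 had an unadjusted p under 0.05, near the share over all genes (8.32% higher and 7.55% lower). The interferon gamma-induced Cxcl9 and Cxcl10, which draw T cells, had differences of 1.78 ± 0.61 (adjusted p = 0.179) and 1.23 ± 0.72 (adjusted p = 0.408). Ccl2 and Ccl6, which draw monocytes and other leukocytes, had differences of -1.47 ± 0.43 (adjusted p = 0.143) and -1.78 ± 0.69 (adjusted p = 0.220). The median of the list was -0.17 without 42L4B and 60L, -0.58 without the 3 tumors of disputed label and 0.03 among the tumors of slide 8.

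Inflammatory cytokines and complement had negative differences in 19 of 21 genes (median -0.59), with Il18 the single called member. The acute phase gene Saa1 had log2 ratios of 0.72, 0.93, -2.10 and 1.05 in early tumors and 3.57, 0.83, 4.17 and 2.67 in late tumors (-2.66 ± 0.79, adjusted p = 0.143). Its early and late ranges overlapped through the late tumor 57R. Il1a differed by -1.74 and Saa3 by -1.5, whereas Tnf differed by 0.46. These values did not pass the false discovery rate. The median of the list was -0.25 on slide 8 (9 of 21 positive), -0.36 without 42L4B and 60L and -1.81 without the 3 tumors of disputed label.

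Luminal and basal lists differed in opposite directions. Of 16 luminal genes 12 had positive differences (median 0.73) and 4 an unadjusted p under 0.05, against 8.32% of all genes higher at that p, and the list mean was 1.91, 2.36, 2.83 and 1.99 in early tumors against 1.64, 1.51, 1.70 and 1.33 in late tumors. These means did not overlap. Epcam, an epithelial adhesion molecule, had log2 ratios of 2.60, 4.42, 4.26 and 2.63 in early tumors and 1.97, 1.01, 2.35 and 1.83 in late tumors (1.69 ± 0.65, adjusted p = 0.217). E-cadherin (Cdh1) differed by 0.95 and Cldn7, a tight junction protein gene, by 1.16, both with 60L dropped as an outlier. Keratins 8 and 18 differed by 0.17 and 0.85, within the overlap of the groups. The luminal median was 0.43 without 42L4B and 60L and 0.83 without the 3 tumors of disputed label.

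All 13 basal and myoepithelial genes had negative differences (median -1.08), 5 of them with an unadjusted p under 0.05, against 7.55% of all genes lower at that p, and none called. The list mean was -1.12, -1.77, -0.04 and -1.12 in early tumors and 0.99, 0.25, -0.53 and 0.66 in late tumors, with 60L and the late tumor 62L in the overlap. Krt5 had log2 ratios of -2.72 in 40R4A, -2.88 in 42L4B and -2.73 in 65R, with 60L dropped, against 0.58, -0.82, -1.89 and 1.34 in late tumors (-2.58 ± 1.05, adjusted p = 0.239). The 3 early values lay close together and below all late tumors, among which 62L was lowest. Krt6a, a keratin of stressed epithelium, had -1.67, -2.83, 0.68 and -0.48 against 2.49, 1.38, -0.84 and 2.21 (-2.39 ± 0.93, adjusted p = 0.220). The contractile protein gene Cnn1 differed by -2.83 ± 0.97 (adjusted p = 0.179) and Krt14 by -0.69 ± 1.18 with both slide 5 tumors dropped. The median of the list was -1.30 without 42L4B and 60L, -1.49 without the 3 tumors of disputed label and -0.58 with the authors' table labels.

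Genes of squamous differentiation, the programme of cornifying epithelium, had negative differences in 12 of 12 (median -0.96). Of these, 4 had an unadjusted p under 0.05 (7.55% of all genes were lower at that p). Sbsn, a suprabasal keratinocyte gene, had the smallest p of the list, with a difference of -1.92 ± 0.56 with 60L dropped (adjusted p = 0.143). The late tumor 56R was highest for Sprr1a (2.59) and Flg (-2.64), and leaving out single tumors moved the median between -1.11 and -0.39. It was -0.86 without 42L4B and 60L and -0.88 without the 3 tumors of disputed label, but -0.24 on slide 8 and -0.30 under normexp and loess, with 3 of 12 genes positive in each of the last 2 settings.

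**Figure D3:**
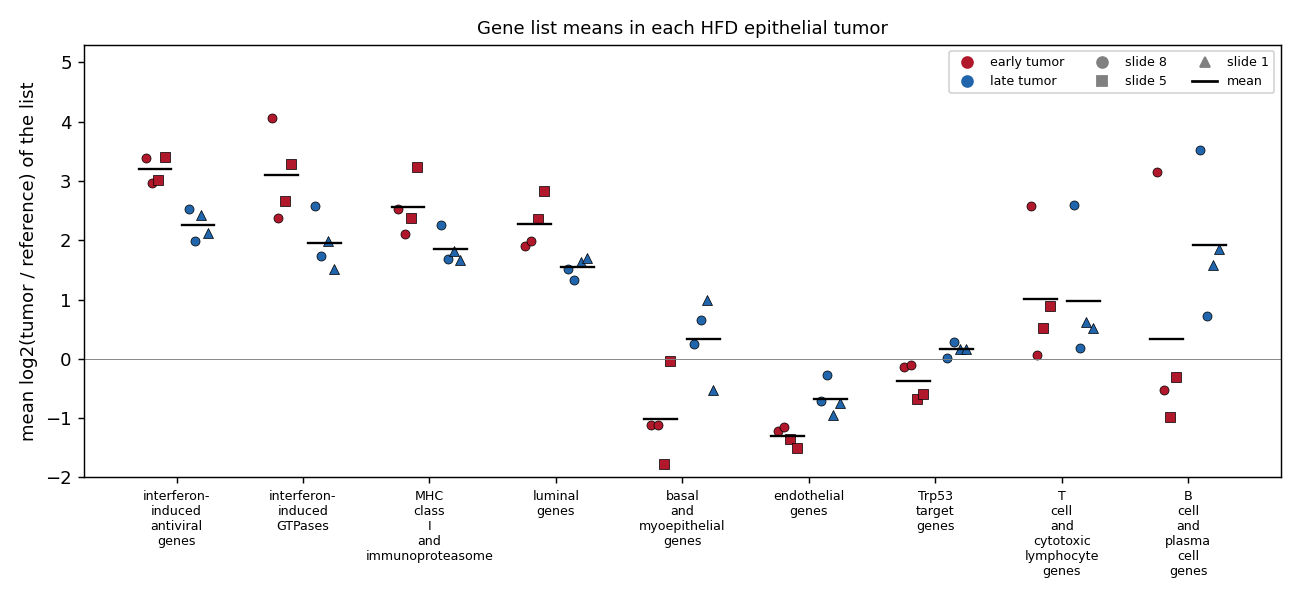
Mean log2 ratios of tumor over reference are plotted for 9 gene lists in each HFD tumor, with early tumors in red and late tumors in blue, marker shape for the slide and lines for group means. Outlier spots are kept. Early and late means do not overlap for the antiviral, luminal, endothelial and Trp53 target lists, and 40R4A and 57R stand above the others for the T cell and B cell lists.

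The Trp53 gene itself gave log2 ratios of 0.78, 2.99, 3.74 and 0.58 in early tumors and 0.79, 0.13, 0.42 and 1.02 in late tumors (1.43 ± 0.63, adjusted p = 0.272). The 2 high values were those of slide 5. In the channels taken apart the difference was 0.39 in the tumor channel and -0.71 in the reference channel. Signal can come from wild-type host cells, and whether the probe lies in the disrupted part of the gene was not tested. Trp53 target genes had negative differences in 14 of 16 (median -0.36). None was called, and 4 had an unadjusted p under 0.05 (7.55% of all genes were lower at that p). Their mean was -0.13, -0.67, -0.60 and -0.10 in early tumors and 0.17, 0.02, 0.16 and 0.29 in late tumors, which did not overlap. Cdkn1a, a cell cycle inhibitor, differed by -1.20 ± 0.55 and Perp, a desmosome protein gene of stratified epithelium, by -2.23 ± 0.86, both with 60L dropped. The median was -0.12 among the tumors of slide 8, -0.15 without 42L4B and 60L and -0.89 without the 3 tumors of disputed label.

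Medians of lists for stromal and myeloid cell types were negative over the 8 tumors, but those of macrophage and neutrophil genes were positive on slide 8. Endothelial genes had a median of -0.49 with 2 of 14 positive, and their mean was -1.22, -1.35, -1.51 and -1.15 in early tumors against -0.94, -0.71, -0.75 and -0.28 in late tumors, without overlap. The defining marker Pecam1, however, differed by 0.33 in the ratio and by -0.39 in the tumor channel alone. Fibroblast and mesenchymal genes had a median of -0.62 (2 of 22 positive) and adipocyte genes of -0.96 (2 of 14 positive). With outlier spots left out, 7 of the 22 fibroblast, 4 of the 14 adipocyte and 6 of the 14 endothelial genes had a value in all 8 tumors. Zeb1, an inducer of mesenchymal transition, differed by -1.43 ± 0.40 (adjusted p = 0.141), and the lymphatic growth factor gene Vegfd by -2.04 ± 0.57 (adjusted p = 0.141). Macrophage genes had a median of -0.37 (6 of 18 positive), neutrophil genes of -0.59 (1 of 11) and skeletal muscle genes of -0.40 (0 of 14). On slide 8 the medians were -0.68 for endothelial genes (0 of 14 positive), -0.30 for fibroblast genes (8 of 22), -0.13 for adipocyte genes, 0.38 for macrophage genes (10 of 18), 0.36 for neutrophil genes (9 of 11) and -0.03 for muscle genes (5 of 14). Without 42L4B and 60L the first 5 of these lists had medians of -0.53, -0.55, -0.57, -0.17 and -0.36, and without the 3 tumors of disputed label -0.94, -1.44, -2.05, -0.92 and -1.40. None of these genes was called, and the part of cell makeup in the results was not tested.

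Lymphocyte lists followed single tumors. The T cell and cytotoxic list had a median difference of 0.01 (11 of 19 positive) and a mean of 2.58 in the early tumor 40R4A and 2.60 in the late tumor 57R, against 0.07 to 0.90 in the other 6. B cell and plasma cell genes were negative in 6 of 6 (median -1.65), but 40R4A had a mean of 3.16 and 57R of 3.53, with -0.98 to 1.85 in the others. The B cell receptor component Cd79a had 3.07 in 40R4A and 3.46 in 57R, and at most 1.31 elsewhere. Both 40R4A and 57R are among the tumors of disputed label, and the medians turned on it. With the authors' table labels of 57R and 65R the T cell median was 1.21 (19 of 19 positive) and the B cell median 0.48 (4 of 6), and in the authors' normalized table they were 0.91 (22 of 22) and 1.16 (7 of 10). The mean of the antiviral genes was 3.39 in 40R4A, against 3.01 in 42L4B, 3.41 in 60L and 2.97 in 65R. In 57R it was 2.53, the highest of the late tumors. Means of the interferon-induced GTPases were highest of their groups in 40R4A (4.07) and 57R (2.58). Whether lymphocyte content had a part in the interferon-induced lists was not tested.

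Cell division genes had positive differences in 24 of 28 (median 0.23), with 3 at an unadjusted p under 0.05, a share near the 8.32% over all genes. The median was 0.13 without 42L4B and 60L and 0.34 without the 3 tumors of disputed label. With outlier spots left out, 8 of the 28 genes had a value in all 8 tumors. The phosphatase gene Cdc25c differed by 1.88 ± 0.59 (adjusted p = 0.157). Its high values, 3.46 and 2.98, were those of the slide 5 tumors, whereas 40R4A and 65R had 0.46 and 0.10. Lipid lists showed no common direction. Cholesterol and fatty acid synthesis genes had 13 of 23 positive (median 0.23), with Srebf1, the regulator of lipid synthesis, differing by 1.17 ± 0.51 (adjusted p = 0.267), and fatty acid uptake and oxidation genes had 6 of 20 positive (median -0.37). Medians were -0.15 for glycolysis and hypoxia (8 of 23 positive), 0.10 for the respiratory chain (21 of 31), 0.23 for hormone receptors (6 of 9), -0.53 for milk proteins (2 of 10), -0.05 for checkpoint genes (4 of 9), -0.25 for angiogenic growth factors (7 of 16) and -0.28 for erythrocyte genes (0 of 4).

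**Figure D4:**
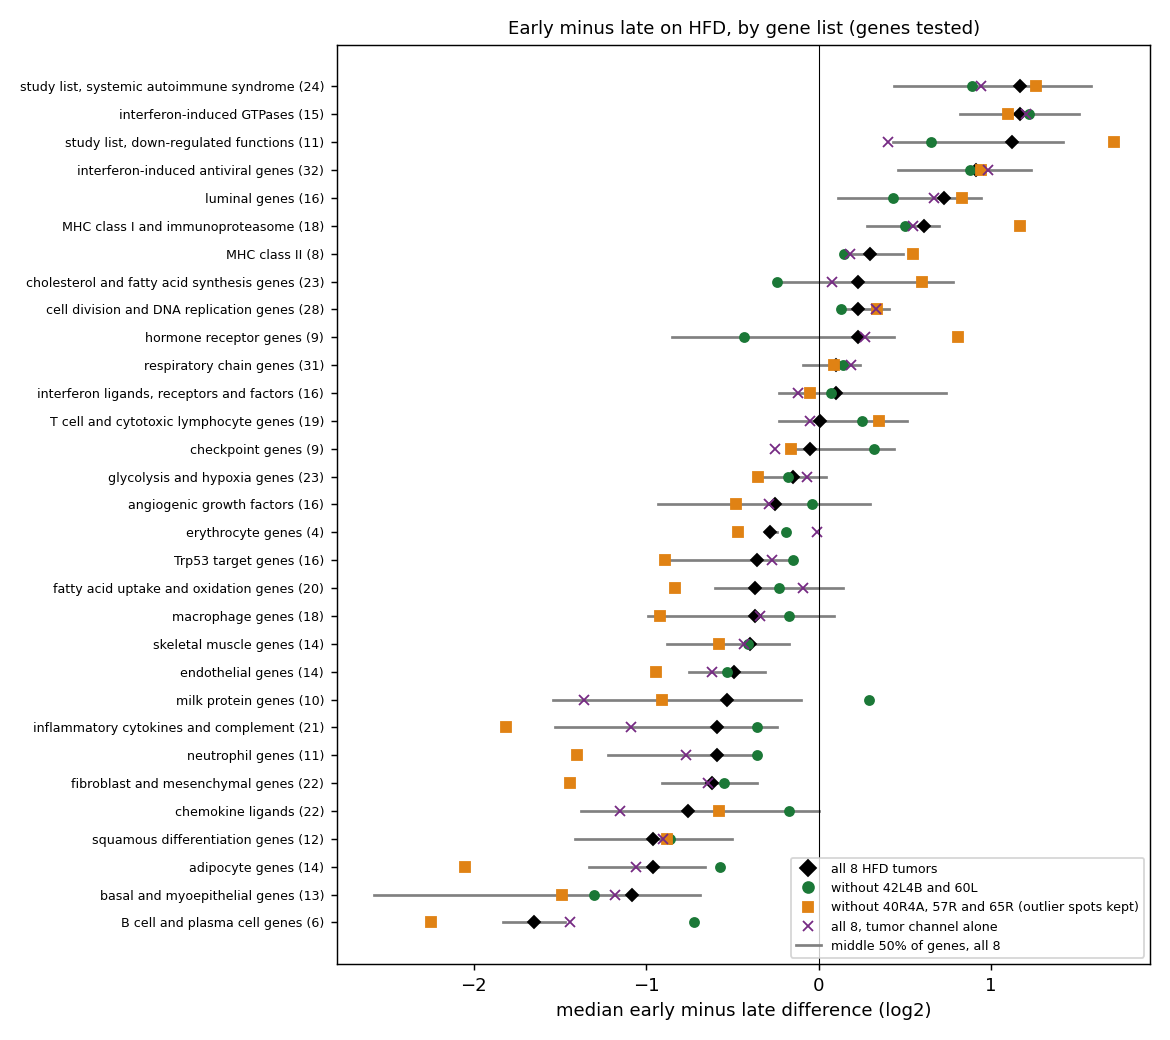
Median early minus late differences (log2) are plotted for 31 gene lists on HFD, with the number of genes tested in parentheses. Diamonds give all 8 tumors, other markers 3 alternatives, and gray lines the middle 50% of genes. Interferon-induced lists lie to the right of 0 under all 4 settings (0.91, 0.88, 0.94 and 0.98 for antiviral genes), and basal genes to the left.

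Whether the onset difference on HFD differed from that in the other regimens was tested as a contrast of contrasts. It called 0 of 21378 genes (0%, limma, smallest adjusted p = 0.206), with 2275 at an unadjusted p under 0.05, and against LFD alone it called 0 as well, with 2011. Among well measured genes, the smallest p belonged to Slurp1, Adgrf4, the GTPase genes Rasl12 and Rab44, and the collagen receptor gene Itga1. Each had an adjusted p of 0.206. Outside that rule, Dnajb3 had a smaller p than these (1.46e-05, limma), and Nsg1 than all but Slurp1 (9.59e-05, limma). Both also had an adjusted p of 0.206. A second probe of Itga1 gave an early minus late difference of 0 on HFD. For Adgrf4 the difference was -3.49 on HFD and 0.22 over the other regimens, and for Rab44 -3.11 and 0.51. In the other direction, the epithelial sorting adaptor gene Ap1m2 differed by 1.92 on HFD and -0.20 elsewhere, with an adjusted p of 0.245 for the contrast. Higher values of Ap1m2 lay in 42L4B and 60L (3.90 and 4.04), against 1.5 and 1.48 in the other early tumors. On LFD the early tumors lay on slide 6 and the late tumors on slide 7, and on HFD-LFD on slides 3 and 4. Onset and slide thus cannot be told apart in these regimens. On LFD-HFD all late tumors lay on slide 2, with the early tumor 82L, and the early tumors 80L and 92R on slide 1.

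The antiviral list had a positive median in each regimen, of 0.91 on HFD, 0.83 on LFD, 0.59 on HFD-LFD and 0.48 on LFD-HFD. GTPase medians were 1.17, 1.05, 0.86 and 0.40 in the same order. Early and late means of the antiviral list did not overlap on HFD or LFD. They overlapped on HFD-LFD (1.62 to 3.86 in early and 1.41 to 3.02 in late tumors) and on LFD-HFD (2.53 to 3.56 and 1.32 to 2.99). Medians for chemokines were -0.76 on HFD and 0.67, 0.19 and 0.07 in the others, for inflammatory cytokines and complement -0.59 and 0.54, 0.11 and 0.72, and for fibroblast genes -0.62 and 0.20, -0.03 and 0.61. Basal genes had -1.08 on HFD, 0.01 on LFD, 0.53 on HFD-LFD and -0.93 on LFD-HFD, and luminal genes 0.73, 0.23, -0.81 and 0.17. The negative chemokine, inflammatory and fibroblast medians on HFD thus stood beside positive or near-zero medians elsewhere, but no gene of any list passed the contrast of contrasts. Among the HFD tumors of slide 8 these 3 medians were 0.03, -0.25 and -0.30, so that their size on HFD depended on the arrays of the other slides.

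**Figure D5:**
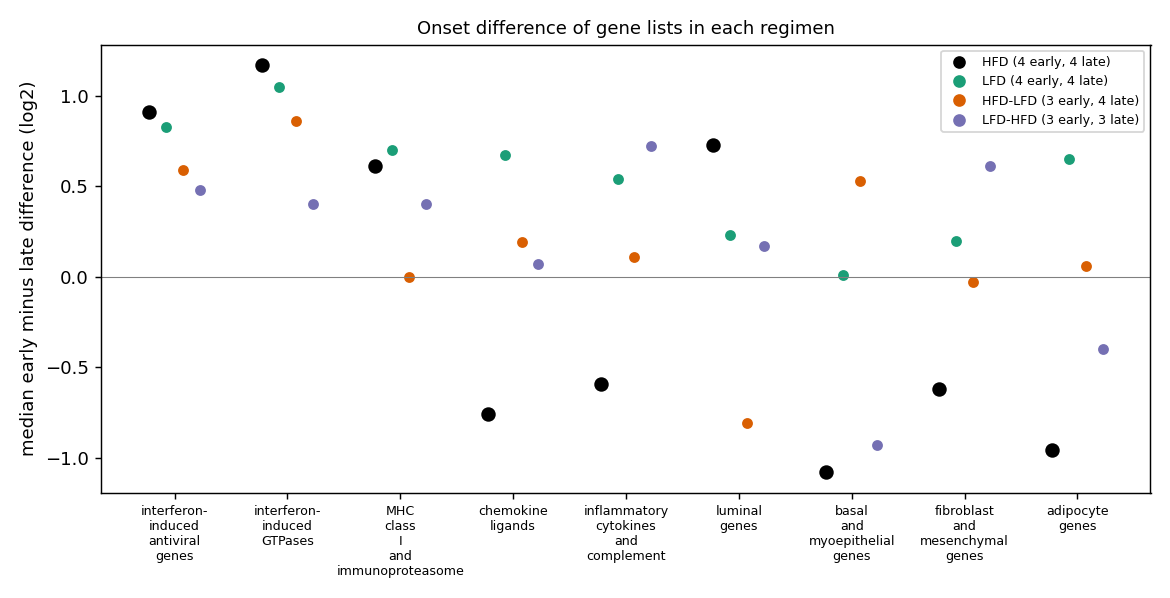
Median early minus late differences (log2) of 9 gene lists are plotted in each regimen, with 4 early and 4 late tumors on HFD and LFD, 3 and 4 on HFD-LFD, and 3 and 3 on LFD-HFD. Antiviral medians are positive in all 4 regimens (0.91, 0.83, 0.59 and 0.48), and the chemokine median is negative on HFD alone (-0.76). Among the HFD tumors of slide 8 the chemokine median was 0.03. On LFD and HFD-LFD, onset and slide cannot be told apart.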

How the data were processed

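Total RNA of 29 epithelial tumors was hybridised with a common reference to Agilent 2-colour arrays (43020 spots), whose deposited scanner files hold processed intensity from Feature Extraction 11.0.1.1 per the file headers, after spatial detrending and lowess dye normalization by the authors. The submitters' processing notes name version 8.5.1.1. The deposited matrix holds the authors' log2 ratios and served as an alternative. Log2 ratios of the processed signals were computed, outlier spots removed (1.62% of gene values), and probes kept with signal over 10 in both channels on 80% of arrays (27938 of 39429), with the brightest probe per gene. Of 21378 genes, 17231 had a RefSeq name. limma 3.58.1 (R 4.3.3) was fitted over 8 regimen and onset groups, with a false discovery rate of 0.10, after a test on simulated data. Nothing states that tumors came from separate mice, so p-values measure the spread between these samples. Their number, 4 against 4, limits the precision. Gene lists, members and tests were chosen with earlier results of these data known. Named genes were up to 12 per direction by difference or p among well measured genes, 4 per list by p, cell type markers, the study's lists, Trp53 and 5 per direction of the contrast of contrasts. One item is not reported here. Alternatives included normexp with offset 50, median centring, filters, blocks for slide, a SAM statistic and left-out tumors.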

Additional observations from a re-analysis of the deposited data

Results flagged for a closer look

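Of 74 groups of 4 values examined (array measures and list means by onset), 4 had a tumor far from the other 3, where chance would single out about 1 in 20. The early tumor 65R had 66.7% of tumor-channel spots well above background, against 64.4 to 64.7% in the other early tumors, and the late tumor 62L had 76.8%, against 70.2 to 70.6%. The early tumor 60L had 22% outlier spots, against 0.56 to 3.5%. The early tumor 40R4A had a mean log2 ratio of 3.16 for B cell and plasma cell genes, against -0.98 to -0.30 in the other early tumors.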

How the results depend on the processing

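No paired analysis was possible because the 8 HFD tumors carry no number shared between early and late, and among the other epithelial tumors a single number, that of the LFD tumors 11L and 11R, spans both. Counts of called genes moved with nearly every setting, and the cause was not tested. Counts higher and lower (5 and 16 as reported) were 1 and 1 at an adjusted p under 0.05, 0 and 0 under normexp and loess, 4 and 6 with median centring, 1 and 1 without a signal filter, 2 and 7 with probes averaged, 1 and 0 with the 8 HFD tumors alone, 3 and 8 with a random slide block, 1 and 2 with a fixed slide block or slide 8 alone, 18 and 3 in the authors' matrix, 9 and 3 with its labels of 57R and 65R, 2598 and 1758 without 40R4A, 57R and 65R, 0 and 0 without 42L4B and 60L, 2 and 4 with array weights, and 4 and 1 by SAM. Alternatives chosen after seeing the data gave 1 and 0 with the tumor channel alone, 1 and 0 with arrays scaled, and 2988 and 3077 without 40R4A, 57R and 65R with outlier spots kept. Leaving out each tumor gave 0 to 1215 higher and 0 to 849 lower: 1215 and 849 without 40R4A, 983 and 673 without 65R, 1 and 3 without 42L4B, 1 and 15 without 57R, 3 and 6 without 62L, and 0 and 0 without 60L, 56R or 66L.

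The contrast of contrasts (0 as reported, also against LFD alone) called 1 gene under normexp, 2 without a filter, 19 in the matrix, 10 with the tumor channel alone, 3422 without 40R4A, 57R and 65R, 4529 with outlier spots kept as well, and 0 to 478 with each tumor left out (478 without 40R4A, fewer without 65R and 3 without 62L). Genes without overlap (558 above and 322 below) were 641 below with outlier spots kept, 4110 and 3421 on slide 8, 333 above in the matrix, 4143 and 3125 without 40R4A, 57R and 65R (5138 and 5499 with outlier spots kept), 2040 and 1677 without 42L4B and 60L, and 671 to 1192 and 412 to 933 with each tumor left out. Fewer tumors make overlap rarer by construction.

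List medians that moved by over the spread between tumors were as follows. Under normexp they were 0.58 for antiviral genes, 0.68 for the autoimmune list and 0.66 for the down-regulated functions list. With slide as a fixed block and on slide 8 alone they were 0.03 for chemokines, 0.38 for macrophages, -0.13 for adipocytes, 0.04 for erythrocytes, -0.33 for cholesterol and fatty acid synthesis and -0.12 for Trp53 targets. In the matrix they were 0.55 for antiviral, 1.16 for B cell, -0.19 for basal and 0.21 for luminal genes. With the matrix labels they were 0.32 for interferon ligands and receptors, 0.58 for antiviral, -0.33 for chemokines, 1.21 for T cells, 0.48 for B cells, 0.25 for luminal, -0.24 for endothelial and -0.77 for glycolysis genes. Without 40R4A, 57R and 65R they were 1.24 for interferon ligands and receptors, 1.20 for MHC class I, 0.94 for MHC class II, -1.56 for fibroblasts, -0.12 for endothelium, -2.93 for muscle, 0.93 for cell division, 1.08 for cholesterol synthesis, -0.45 for the respiratory chain, -0.89 for Trp53 targets, -1.70 for inflammatory and 1.84 for down-regulated functions genes. With outlier spots kept as well they were 1.17 for MHC class I, -1.44 for fibroblasts, -0.94 for endothelium, -2.05 for adipocytes, -0.89 for Trp53 targets, -1.81 for inflammatory and 1.71 for down-regulated functions genes. Without 42L4B and 60L they were -0.17 for chemokines and 0.65 for down-regulated functions. In the tumor channel alone they were -0.12 for interferon ligands and receptors, -1.36 for milk proteins, -0.01 for erythrocytes and 0.40 for down-regulated functions. With arrays scaled they were 0.21 for muscle, 0.27 for erythrocytes and 0.29 for the respiratory chain. The milk protein median ran from -1.74 to -0.39 with each tumor left out, the lowest without 65R.

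Antiviral, GTPase, MHC class I, luminal, basal, squamous, endothelial, fibroblast and adipocyte medians kept their sign in all 18 alternatives other than single left-out tumors. Among the 21 called genes, Slc1a6 (0.27) and Fhl1 (0.94) turned under normexp, and Gm3776 turned in the matrix (0.18) and with its labels (0.20). Of the 190 named genes, most of them not called, the difference changed sign for 28 in the matrix, 19 under normexp, 19 each with slide as a fixed block and on slide 8 alone, 17 with the matrix labels, 15 without 42L4B and 60L, and 0 to 8 in each other setting. Apart from the 4 turns named, over all settings 4276 values kept their side of the threshold, 369 lost the call and 253 gained it.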
